A study of Homo sapiens with 16 samples.

Results

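The 55 genes described here encode factors that build ribosomes, and they were taken by symbol from the 32080 gene symbols on the array. They were chosen as typical targets of the transcription factor MYC, by name but with earlier results of these data known. Gene expression was measured on 1-colour arrays in RPMI-8226 and MM.1S, which are established human cell lines of multiple myeloma, a cancer of plasma cells. Each line was given the solvent DMSO, the EZH2 inhibitor GSK126 at 1 μM, the G9a inhibitor UNC0638 at 1 μM, or both inhibitors at 1 μM each, and RNA was taken after 6 days. EZH2 methylates histone H3 at lysine 27 and G9a at lysine 9, and both marks accompany silent chromatin. There were 2 replicate arrays in each of the 8 groups and so 16 arrays, and the disease is represented by these 2 lines only. All 10 plasma cell markers looked at, among them SDC1, TNFRSF17, IRF4 and XBP1, were well above background on every array, and the B cell markers PAX5 and CD22 on none. Signals above background on all 8 arrays were also found for CR2, CD3D, CD2 and CD14 in both lines, for CD3G, CSF1R and VWF in RPMI-8226 cells and for TRAT1, ITGAM, PECAM1 and CDH5 in MM.1S cells, and their part in the results was not tested.

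Ribosome synthesis starts in the nucleolus, where RNA polymerase I transcribes a long precursor that is cut and modified into the 18S, 5.8S and 28S ribosomal RNAs. Small nucleolar ribonucleoproteins guide the modifications, the SSU processome folds and cuts the part that becomes the 40S subunit, and a separate set of factors assembles the 60S subunit. MYC binds E-boxes with its partner MAX near the start of many of these genes, and myeloma cells, which secrete large amounts of immunoglobulin, depend on MYC and on a high rate of protein synthesis.

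RefSeq promoters (GRCh38.p14, from 250 bases before to 50 bases after the annotated start, 300 bases) were at hand for 46 of the 55 members, 11 of them with 2 starts. The canonical E-box CACGTG, which reads the same on both strands, lay in the promoter of 19 of these 46 genes (41.3%), beside 8.77% of all 27305 genes of the table. That table also holds genes that were not tested on the arrays. Of genes tested in MM.1S cells given both inhibitors, it was found for 13.2% of those called lower, 12.7% called higher and 11.7% not called. Counted over promoters, 20 of 57 held it (35.1%), beside 7.26% of all 35116 promoters of the table. The related motif CACGCG, or CGCGTG on the other strand, lay in the promoter of 16 of the 46 (34.8%), beside 13.5% of all genes of the table. Both motifs were found in 5 members and neither in 16. Of 22 CACGTG matches, 20 were centred within 100 bases of the start. Shown are 30-base windows on the strand of the gene, 5′ to 3′, with the E-box in capitals, for the 8 members with the largest fall in MM.1S cells given both inhibitors among those whose window lay wholly inside the promoter.
LYAR: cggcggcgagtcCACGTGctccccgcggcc
MRTO4: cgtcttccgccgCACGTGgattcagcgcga
DDX21: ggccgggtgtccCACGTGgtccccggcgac
WDR43: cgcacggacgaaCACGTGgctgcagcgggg
EBNA1BP2: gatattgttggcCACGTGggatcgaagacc
RRP9: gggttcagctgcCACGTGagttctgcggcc
BYSL: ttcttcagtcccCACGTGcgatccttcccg
FBL: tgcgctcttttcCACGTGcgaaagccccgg
These windows lie at chr4:4290068-4290097 (minus strand) for LYAR, chr1:19251807-19251836 (plus) for MRTO4, chr10:68956604-68956633 (plus) for DDX21 and chr2:28894658-28894687 (plus) for WDR43. The others lie at chr1:43172790-43172819 (minus) for EBNA1BP2, chr3:51941892-51941921 (minus) for RRP9, chr6:41921515-41921544 (plus) for BYSL and chr19:39846356-39846385 (minus) for FBL. Counted from the start, the E-boxes were centred at base -2 for RRP9, 6 for WDR43 and 9 for FBL, and farthest away at -234 for EBNA1BP2. A second EBNA1BP2 match was centred at base 45, and its window was not wholly inside the promoter. No promoter was at hand for BOP1, DDX18, MPHOSPH10, NOLC1, NOP58, POLR1E, RRP12, RRP1B and RRS1.

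A value below is the log2 intensity of the brightest probe of a gene minus the 75th percentile of its array, and it is comparable between arrays but not between genes. A log2 fold change is a difference between group means of 2 arrays, with the standard error (SE) of limma's fit over the 8 arrays of a cell line, and a member was called where the Benjamini-Hochberg adjusted p over all probes kept was under 0.05. All 55 probes were well above background on all 16 arrays and all 55 were tested, each on the chromosome that RefSeq gives for its symbol. The share of spots well above background ran from 46.5% to 52.8% across arrays. Every array of a line was on 1 slide and in 1 scan. Differences between slides and between lines therefore cannot be told apart. In both lines each treatment had its own column of the slide, so that treatments and slide columns cannot be told apart. Each replicate number had its own row of the slide, so that pairs of replicates and slide rows cannot be told apart. Replicates are separate samples by the labels, and p-values measure only the spread between such arrays. Since the arrays hold equal amounts of RNA from whole cultures, fewer cells that express a gene and less of its RNA per cell cannot be told apart, and a change that most genes share is removed by the scaling.

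In MM.1S cells given GSK126 + UNC0638, 54 of the 55 members fell, against 32.0% of all 17920 genes tested that were called lower. The exception was UBTF. The median log2 fold change of the members was -1.06, beside -0.12 over all genes. Both treated arrays lay below both DMSO arrays for 55 of 55 members, as they did for 46.4% of all genes. More than 2-fold falls were called for 31 members, beside 5.60% of all genes. In RPMI-8226 cells given the same treatment none of the 55 members was called, where 4.77% of genes were called lower, and 22 members had an unadjusted limma p under 0.05 and a value below 0, beside 17.2% of all genes. In this line arrays with the same replicate number, and so in the same slide row, deviated together. With the number as a block 4 members (NOLC1, POLR1C, NOP14 and POLR1B) were called lower, beside 9.26% of all genes. The median of the members there was -0.36, beside -0.11 over all genes, and 53 of 55 members had a value below 0. Under quantile normalization the members' median was -0.20 (all genes -0.08) and with a percentile over detected probes -0.24 (all genes 0.02), and 8 members were above 0 in each. Without replicate 1 of the combination the median was -0.23, and without replicate 2 it was -0.50.

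**Figure D1:**
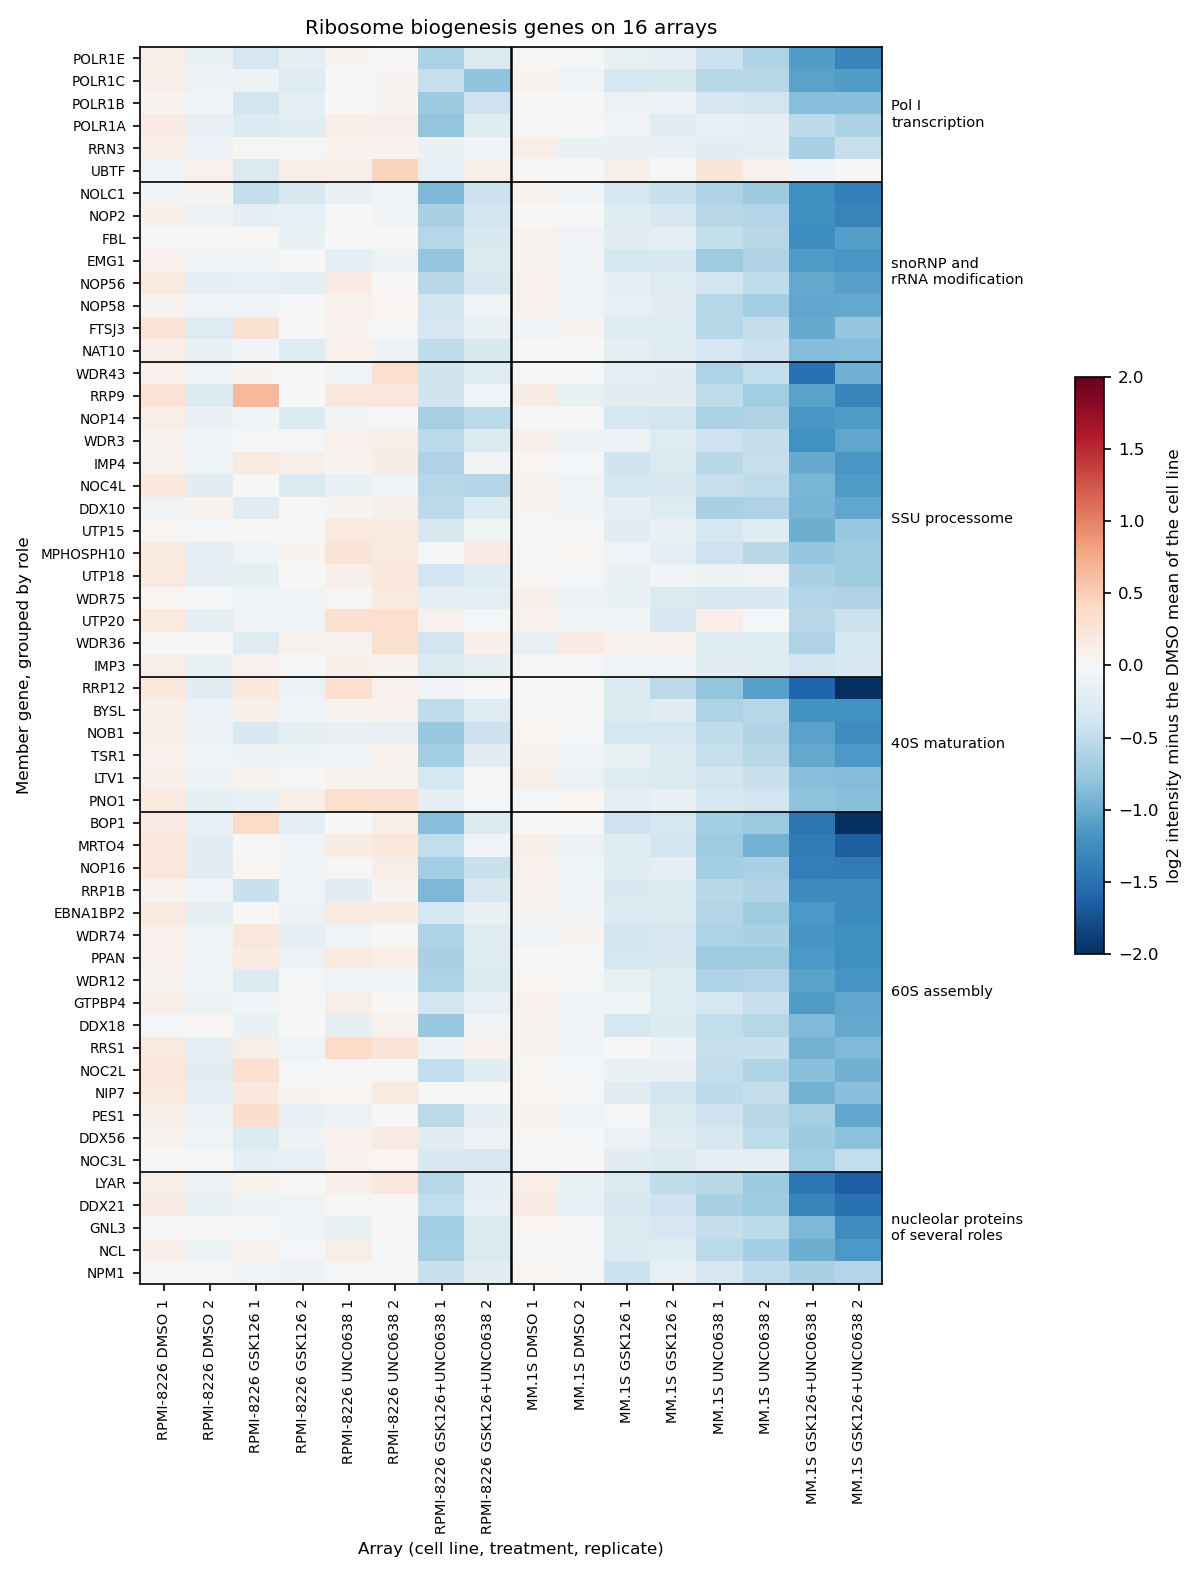
Each row is a member, grouped by role, and each column 1 of the 16 arrays. Colour gives the log2 intensity minus the mean of both DMSO arrays of the same cell line, from -2 (dark blue) to 2 (dark red). The columns of MM.1S cells given both inhibitors are blue for nearly every row, with array medians of -1.02 and -1.04, while the corresponding RPMI-8226 columns are paler, with medians of -0.50 and -0.23.

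Among factors of RNA polymerase I transcription, 5 of 6 fell with both inhibitors in MM.1S cells (median -0.71), and none of 6 was called in RPMI-8226 cells (median -0.49). POLR1E, a subunit of the polymerase, gave values of 1.29 and 1.24 with DMSO, 1.12 and 1.07 with GSK126, 0.83 and 0.65 with UNC0638 and 0.16 and -0.05 with both in MM.1S cells. Its treated arrays lay below both DMSO arrays at every treatment, and the change was -1.21 (SE 0.11) on the log2 scale with both inhibitors (adjusted p = 4.76e-04). In RPMI-8226 cells POLR1E gave 2.36 and 2.10 with DMSO, 1.89 and 2.05 with GSK126, 2.29 and 2.23 with UNC0638 and 1.59 and 1.94 with both, a change of -0.47 (SE 0.18) with both (adjusted p = 0.131). POLR1C, a subunit shared with RNA polymerase III, gave 3.15 and 3.0 with DMSO, 2.74 and 2.76 with GSK126, 2.52 and 2.51 with UNC0638 and 2.0 and 1.96 with both in MM.1S cells. Its values in RPMI-8226 cells were 3.60 and 3.41 with DMSO, 3.41 and 3.25 with GSK126, 3.51 and 3.57 with UNC0638 and 3.05 and 2.70 with both. In both lines the POLR1C arrays given both inhibitors lay below the DMSO arrays, with changes of -1.09 (SE 0.08) in MM.1S (adjusted p = 3.43e-04) and -0.63 (SE 0.17) in RPMI-8226 cells (adjusted p = 0.0586, and 0.0318 with the replicate block). POLR1A, which carries the catalytic centre together with POLR1B, gave 2.11 and 2.10 with DMSO, 2.03 and 1.86 with GSK126, 1.95 and 1.91 with UNC0638 and 1.58 and 1.47 with both in MM.1S cells and 1.43 and 1.09 with DMSO, 0.99 and 1.04 with GSK126, 1.40 and 1.36 with UNC0638 and 0.48 and 1.02 with both in RPMI-8226 cells. Its log2 fold changes with both inhibitors were -0.58 (SE 0.09, adjusted p = 0.00313) and -0.51 (SE 0.22, adjusted p = 0.163). A second, dimmer POLR1A probe, which passed the filter in MM.1S cells only, gave -2.07 there (SE 0.19, adjusted p = 4.94e-04), so that the probes disagree on the size of the fall.

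UBTF, the HMG-box protein that binds ribosomal DNA and activates the polymerase, was the only member not called in MM.1S cells given both inhibitors. Its values there were 1.12 and 1.13 with DMSO, 1.22 and 1.08 with GSK126, 1.37 and 1.21 with UNC0638 and 1.06 and 1.11 with both, and in RPMI-8226 cells 0.35 and 0.54 with DMSO, 0.16 and 0.57 with GSK126, 0.58 and 0.90 with UNC0638 and 0.29 and 0.58 with both. The log2 fold change with both inhibitors was -0.04 (SE 0.09) in MM.1S cells, with a 95% confidence interval from -0.27 to 0.19, and turned positive under quantile normalization, under a percentile over detected probes and under normexp background correction. RRN3, the initiation factor that brings the polymerase to the promoter, fell by 0.56 on the log2 scale in MM.1S cells (adjusted p = 0.00838) and POLR1B fell by 0.84 (adjusted p = 4.15e-04). The dimmer RRN3 probes gave -0.50 (adjusted p = 0.101) and -0.32 (adjusted p = 0.0567) there and were not called. The POLR1B change in RPMI-8226 cells was -0.57 (SE 0.17, adjusted p = 0.07, and 0.0492 with the replicate block).

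All 8 snoRNP and modification factors fell in MM.1S cells given both inhibitors (median -1.11), and none of 8 was called in RPMI-8226 cells (median -0.44). NOLC1, a chaperone of snoRNPs, had values of 4.42 and 4.27 with DMSO, 3.99 and 3.89 with GSK126, 3.73 and 3.61 with UNC0638 and 3.11 and 2.98 with both in MM.1S cells. Its values in RPMI-8226 cells were 4.48 and 4.58 with DMSO, 4.05 and 4.22 with GSK126, 4.38 and 4.45 with UNC0638 and 3.64 and 4.09 with both. The changes with both inhibitors were -1.30 (SE 0.10, adjusted p = 3.47e-04) and -0.66 (SE 0.18, adjusted p = 0.0635, and 0.0298 with the replicate block), and the second was the lowest value of any member in RPMI-8226 cells. NOP2, which methylates a cytosine of the 28S rRNA, gave 2.73 and 2.75 with DMSO, 2.5 and 2.42 with GSK126, 2.19 and 2.15 with UNC0638 and 1.52 and 1.40 with both in MM.1S cells and 3.02 and 2.83 with DMSO, 2.74 and 2.77 with GSK126, 2.92 and 2.85 with UNC0638 and 2.28 and 2.55 with both in RPMI-8226 cells. It fell by 1.28 in the former (SE 0.08, adjusted p = 2.18e-04). NAT10, which acetylates cytidines of the 18S rRNA, had the smallest change of this group in MM.1S cells, with 2.18 and 2.18 with DMSO, 2.0 and 1.93 with GSK126, 1.84 and 1.76 with UNC0638 and 1.31 and 1.33 with both. There was still no overlap, and the change was -0.86 (SE 0.08, adjusted p = 4.76e-04). Its RPMI-8226 values were 2.54 and 2.26 with DMSO, 2.34 and 2.16 with GSK126, 2.49 and 2.30 with UNC0638 and 1.90 and 2.10 with both. The box C/D core proteins NOP56, NOP58 and FBL, of which FBL is the methyltransferase, fell by 1.06, 1.03 and 1.17, the pseudouridine methyltransferase EMG1 fell by 1.15 and the processing factor FTSJ3 fell by 0.89.

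The 14 members of the SSU processome all fell in MM.1S cells given both inhibitors (median -0.92), and 12 of 14, all but MPHOSPH10 and UTP20, had values below 0 in RPMI-8226 cells (median -0.28) without a call. WDR43, a subunit of the UTP-A complex, gave 1.98 and 1.94 with DMSO, 1.76 and 1.73 with GSK126, 1.34 and 1.47 with UNC0638 and 0.46 and 1.00 with both in MM.1S cells. Both treated arrays were lower than both DMSO arrays, although they differed from each other by 0.54, the most of any member, and the change was -1.23 (SE 0.17, adjusted p = 0.00204). In RPMI-8226 cells WDR43 gave 2.52 and 2.35 with DMSO, 2.48 and 2.43 with GSK126, 2.36 and 2.75 with UNC0638 and 2.03 and 2.17 with both. RRP9, a protein of the U3 snoRNP, gave 3.37 and 3.07 with DMSO, 3.0 and 3.01 with GSK126, 2.71 and 2.52 with UNC0638 and 2.15 and 1.89 with both in MM.1S cells, and its RPMI-8226 values were 3.76 and 3.21 with DMSO, 4.13 and 3.47 with GSK126, 3.70 and 3.71 with UNC0638 and 3.08 and 3.40 with both. Only the MM.1S values separated, with a change of -1.20 (SE 0.14, adjusted p = 0.00113). NOP14, a scaffold protein, gave 4.43 and 4.45 with DMSO, 4.09 and 4.07 with GSK126, 3.8 and 3.85 with UNC0638 and 3.28 and 3.30 with both in MM.1S cells and 4.18 and 3.91 with DMSO, 4.0 and 3.78 with GSK126, 3.99 and 4.02 with UNC0638 and 3.38 and 3.52 with both in RPMI-8226 cells. It was the only member called with GSK126 alone in MM.1S cells, and with both inhibitors it changed by -1.15 (SE 0.07) there (adjusted p = 2.06e-04) and by -0.60 (SE 0.16) in RPMI-8226 cells (adjusted p = 0.0575, and 0.0436 with the replicate block).

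IMP3, a partner of the U3 snoRNA with IMP4 and MPHOSPH10, changed least of this group in MM.1S cells, with 4.0 and 3.94 with DMSO, 3.88 and 3.90 with GSK126, 3.76 and 3.72 with UNC0638 and 3.59 and 3.65 with both. The fall of 0.35 was called (SE 0.07, adjusted p = 0.00926) but was -0.01 under quantile normalization and -0.16 with a percentile over detected probes, both uncalled, and was also uncalled without replicate 1 of the DMSO arrays (-0.32). In RPMI-8226 cells IMP3 gave 4.84 and 4.56 with DMSO, 4.78 and 4.69 with GSK126, 4.79 and 4.77 with UNC0638 and 4.41 and 4.50 with both. IMP4 fell by 1.09 and MPHOSPH10 fell by 0.74 in MM.1S cells. WDR3, another subunit, gave 0.88 and 0.68 with DMSO, 0.67 and 0.52 with GSK126, 0.37 and 0.30 with UNC0638 and -0.43 and -0.25 with both in MM.1S cells and 2.21 and 2.10 with DMSO, 2.12 and 2.12 with GSK126, 2.24 and 2.28 with UNC0638 and 1.62 and 1.88 with both in RPMI-8226 cells, and fell by 1.12 in the former. The other 7 members of this group, NOC4L, DDX10, UTP15, UTP18, WDR75, UTP20 and WDR36, had log2 fold changes between -1.02 and -0.49 in MM.1S cells.

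All 6 factors of late 40S maturation fell in MM.1S cells given both inhibitors (median -1.12), and all 6 had values below 0 in RPMI-8226 cells (median -0.29) with none called. RRP12, a HEAT-repeat protein of pre-ribosome export, had the largest fall of all 55 members in MM.1S cells, where its values were 1.47 and 1.45 with DMSO, 1.17 and 0.92 with GSK126, 0.68 and 0.37 with UNC0638 and -0.13 and -0.54 with both. In RPMI-8226 cells they were 1.71 and 1.27 with DMSO, 1.70 and 1.39 with GSK126, 1.82 and 1.57 with UNC0638 and 1.44 and 1.5 with both. Values in MM.1S cells were lower with each single inhibitor and lowest with both, a change of -1.79 (SE 0.18, adjusted p = 6.35e-04) or 3.47-fold. In RPMI-8226 cells the arrays given both inhibitors lay between the DMSO arrays, a change of -0.02 (SE 0.20, adjusted p = 0.956). The RRP12 probe lies at chr10:99123617-99125880 (GRCh37), a span longer than the 60 bases of the probe. BYSL, which binds the pre-40S particle early, gave 3.26 and 3.25 with DMSO, 2.98 and 3.02 with GSK126, 2.64 and 2.68 with UNC0638 and 2.06 and 2.05 with both in MM.1S cells and 3.52 and 3.33 with DMSO, 3.53 and 3.38 with GSK126, 3.47 and 3.49 with UNC0638 and 2.92 and 3.16 with both in RPMI-8226 cells. The 4 MM.1S groups did not overlap, and the change was -1.20 (SE 0.07) with both (adjusted p = 1.93e-04). NOB1, the endonuclease that makes the 3′ end of 18S rRNA, gave 2.17 and 2.08 with DMSO, 1.78 and 1.77 with GSK126, 1.62 and 1.52 with UNC0638 and 1.06 and 0.88 with both in MM.1S cells and 3.29 and 3.05 with DMSO, 2.87 and 2.97 with GSK126, 3.03 and 3.01 with UNC0638 and 2.42 and 2.75 with both in RPMI-8226 cells. It was the member of this group with the lowest RPMI-8226 change, -0.59 (SE 0.17, adjusted p = 0.0678), against -1.16 (SE 0.09) in MM.1S cells. PNO1, the partner of NOB1, changed least of the group in MM.1S cells (0.92 and 1.01 with DMSO, 0.77 and 0.82 with GSK126, 0.64 and 0.58 with UNC0638 and 0.16 and 0.12 with both), where it fell by 0.82, and gave 1.34 and 0.95 with DMSO, 1.02 and 1.26 with GSK126, 1.48 and 1.46 with UNC0638 and 0.95 and 1.11 with both in RPMI-8226 cells. The GTPase-like TSR1 fell by 1.08 and the pre-40S factor LTV1 fell by 0.86 in MM.1S cells.

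All 16 factors of 60S assembly fell in MM.1S cells given both inhibitors (median -1.10). In RPMI-8226 cells all 16 had values below 0 (median -0.36), with NIP7 at -0.0009 and none called. BOP1, which forms the PeBoW complex with PES1 and WDR12, gave 2.94 and 2.91 with DMSO, 2.52 and 2.57 with GSK126, 2.25 and 2.19 with UNC0638 and 1.46 and 0.94 with both in MM.1S cells. Its RPMI-8226 values were 3.86 and 3.54 with DMSO, 4.10 and 3.52 with GSK126, 3.70 and 3.84 with UNC0638 and 2.85 and 3.43 with both. Both lines had their lowest BOP1 values with both inhibitors, and the changes were -1.73 (SE 0.17, adjusted p = 5.86e-04) or 3.31-fold in MM.1S and -0.56 (SE 0.27) in RPMI-8226 cells (adjusted p = 0.211). Of its partners, WDR12 gave 2.89 and 2.79 with DMSO, 2.69 and 2.61 with GSK126, 2.23 and 2.25 with UNC0638 and 1.78 and 1.66 with both in MM.1S cells and 4.07 and 3.95 with DMSO, 3.73 and 3.98 with GSK126, 3.93 and 3.95 with UNC0638 and 3.40 and 3.72 with both in RPMI-8226 cells, and PES1 fell by 0.84 in MM.1S cells (adjusted p = 0.00598). MRTO4, a placeholder for a stalk protein of the 60S subunit, gave 2.54 and 2.32 with DMSO, 2.19 and 2.06 with GSK126, 1.73 and 1.49 with UNC0638 and 1.03 and 0.78 with both in MM.1S cells and 3.15 and 2.74 with DMSO, 2.95 and 2.87 with GSK126, 3.1 and 3.17 with UNC0638 and 2.44 and 2.88 with both in RPMI-8226 cells. Only the first set separated into steps, and the change was -1.53 (SE 0.14) for both inhibitors (adjusted p = 5.42e-04), or 2.89-fold.

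RRP1B, a nucleolar protein that also binds a phosphatase, gave 2.74 and 2.62 with DMSO, 2.38 and 2.40 with GSK126, 2.12 and 2.07 with UNC0638 and 1.40 and 1.41 with both in MM.1S cells and 3.06 and 2.92 with DMSO, 2.55 and 2.90 with GSK126, 2.77 and 3.05 with UNC0638 and 2.10 and 2.68 with both in RPMI-8226 cells. The latter change, -0.61 (SE 0.24), was the lowest of the 60S group in that line but its 2 arrays given both inhibitors lay far apart (adjusted p = 0.142). NOC3L changed least of the group in MM.1S cells, with a fall of 0.59 (adjusted p = 0.00291). Its MM.1S values were 2.15 and 2.15 with DMSO, 1.94 and 1.87 with GSK126, 1.95 and 1.95 with UNC0638 and 1.46 and 1.66 with both, and its RPMI-8226 values were 1.57 and 1.57 with DMSO, 1.37 and 1.40 with GSK126, 1.65 and 1.60 with UNC0638 and 1.26 and 1.23 with both. NOC2L, its relative, gave 3.01 and 2.95 with DMSO, 2.86 and 2.84 with GSK126, 2.49 and 2.38 with UNC0638 and 2.15 and 2.02 with both in MM.1S cells and 4.64 and 4.18 with DMSO, 4.74 and 4.39 with GSK126, 4.41 and 4.43 with UNC0638 and 3.92 and 4.19 with both in RPMI-8226 cells. The helicase DDX56 gave 5.51 and 5.46 with DMSO, 5.37 and 5.27 with GSK126, 5.17 and 4.98 with UNC0638 and 4.77 and 4.67 with both in MM.1S cells and 4.87 and 4.71 with DMSO, 4.52 and 4.69 with GSK126, 4.88 and 4.97 with UNC0638 and 4.56 and 4.69 with both in RPMI-8226 cells. NOC2L fell by 0.90, WDR12 fell by 1.12 and DDX56 fell by 0.77 in MM.1S cells. The remaining 8 factors, NOP16, EBNA1BP2, WDR74, PPAN, GTPBP4, DDX18, RRS1 and NIP7, had MM.1S changes between -1.39 (NOP16) and -0.89 (NIP7).

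The 5 genes of nucleolar proteins with several roles all fell in MM.1S cells given both inhibitors (median -1.07), and none was called in RPMI-8226 cells (median -0.38). LYAR, a zinc finger protein of the nucleolus, gave 3.73 and 3.46 with DMSO, 3.30 and 3.1 with GSK126, 3.04 and 2.86 with UNC0638 and 2.15 and 1.96 with both in MM.1S cells and 3.03 and 2.80 with DMSO, 2.99 and 2.91 with GSK126, 3.02 and 3.15 with UNC0638 and 2.35 and 2.73 with both in RPMI-8226 cells. Its change in MM.1S cells was -1.54 (SE 0.14, adjusted p = 5.20e-04), or 2.91-fold. The helicase DDX21, which senses polymerase activity, gave 4.56 and 4.23 with DMSO, 4.07 and 3.98 with GSK126, 3.74 and 3.68 with UNC0638 and 3.05 and 2.90 with both in MM.1S cells and 4.66 and 4.35 with DMSO, 4.40 and 4.44 with GSK126, 4.53 and 4.51 with UNC0638 and 4.02 and 4.35 with both in RPMI-8226 cells, with a fall of 1.42 in the former (adjusted p = 5.16e-04). GNL3, also called nucleostemin, gave 4.80 and 4.72 with DMSO, 4.47 and 4.42 with GSK126, 4.29 and 4.24 with UNC0638 and 3.86 and 3.53 with both in MM.1S cells. Its values in RPMI-8226 cells were 5.30 and 5.29 with DMSO, 5.27 and 5.23 with GSK126, 5.16 and 5.30 with UNC0638 and 4.62 and 5.00 with both, where the arrays given both inhibitors lay below all others, with a change of -0.49 (SE 0.17, adjusted p = 0.104). NPM1, the histone chaperone nucleophosmin, changed least of the group in MM.1S cells, with 7.56 and 7.48 with DMSO, 7.09 and 7.36 with GSK126, 7.18 and 7.01 with UNC0638 and 6.86 and 6.93 with both and a fall of 0.62 (adjusted p = 0.00623) that was -0.21 and uncalled under quantile normalization. Its RPMI-8226 values were 7.84 and 7.83 with DMSO, 7.76 and 7.74 with GSK126, 7.80 and 7.79 with UNC0638 and 7.39 and 7.61 with both, and hybridisation to its processed pseudogenes was not tested. Nucleolin, NCL, fell by 1.06 in MM.1S cells.

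**Figure D2:**
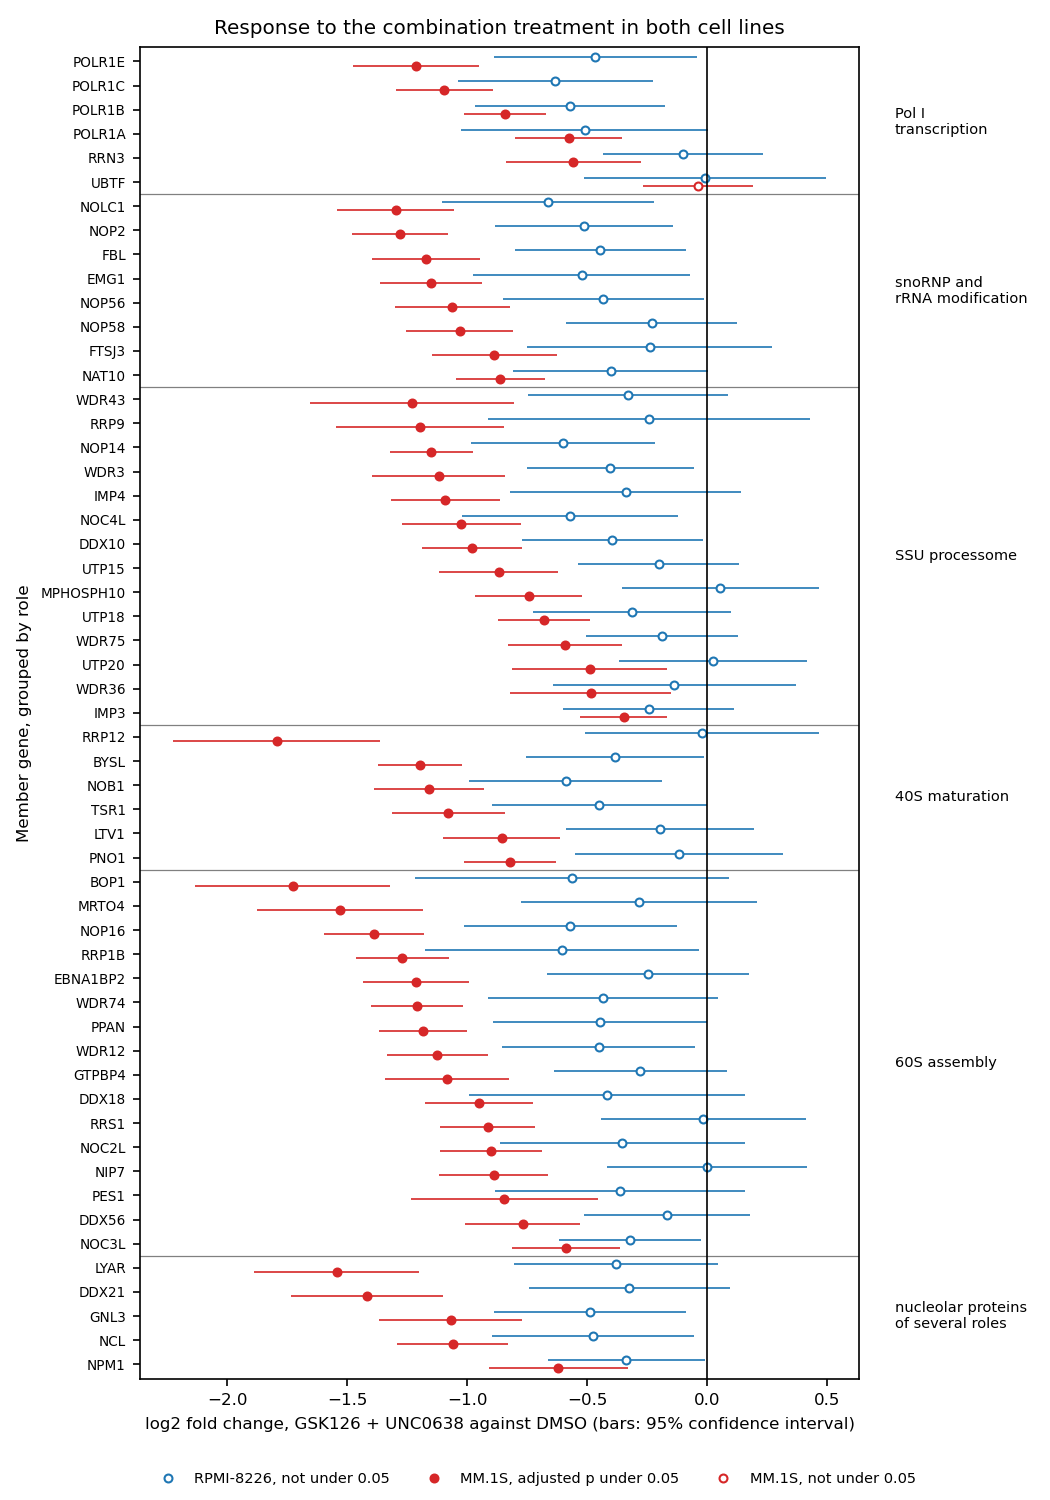
Log2 fold change of each member with GSK126 + UNC0638 against DMSO (horizontal axis, bars are 95% confidence intervals from limma) in RPMI-8226 (blue) and MM.1S cells (red), grouped by role. Filled points mark adjusted p under 0.05. All MM.1S points but UBTF are filled and range from -1.79 to -0.35, while all RPMI-8226 points are open and range from -0.66 to 0.06 in this fit, which has no replicate block.

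Each inhibitor alone was compared with DMSO to see which of them moved the members. In MM.1S cells UNC0638 lowered 43 of 55 members, beside 16.4% of all genes called lower, with a median of -0.51 against -0.06 over all genes. Both UNC0638 arrays lay below both DMSO arrays for 53 members, beside 40.8% of all genes. All 43 were among those lowered by both inhibitors. The largest falls were those of RRP12, by 0.93, and MRTO4, by 0.82. The 12 not called were IMP3, NOC3L, PES1, POLR1A, RRN3, UBTF, UTP15, UTP18, UTP20, WDR36, WDR43 and WDR75, and the values of UBTF (0.16) and UTP20 (0.05) were above 0. The count was 25 with no filter on dim probes (3.56% of all genes called lower) and 28 in 1 fit over all 16 arrays (8.69%). Without single arrays the count also moved, as did the share of all genes. The median of the members stayed between -0.56 and -0.40 in all alternatives. GSK126 lowered 1 member in MM.1S cells, NOP14, by 0.36 (SE 0.07, adjusted p = 0.0393), beside 2.39% of all genes. With GSK126 25 members had an unadjusted p under 0.05 (14.7% of all genes, lower), 53 of 55 values were below 0 (median -0.22, all genes -0.05), and both treated arrays lay below both DMSO arrays for 50 of 55 members, beside 36.2% of all genes. The call of NOP14 depended on single arrays. Over the alternatives the count ran from 0, as with no filter (0.125% of all genes called lower), to 18 with an intensity trend (8.11%).

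In RPMI-8226 cells neither inhibitor alone gave a call by limma among the members, and none of the 55 had an unadjusted p under 0.05 with either. Called lower were 0.0476% of all genes with GSK126 and 0.0654% with UNC0638. The medians were -0.05 with GSK126 and 0.07 with UNC0638, and 40 of 55 values with UNC0638 were above 0. With GSK126 both arrays lay below both DMSO arrays for 14 members, beside 22.8% of all genes. With UNC0638 both arrays lay above both DMSO arrays for 11 members (18.5% of all genes) and below for 5 (23.7%). The 95% confidence intervals bound these changes only loosely, as the median SE of the members was 0.17.

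**Figure D3:**
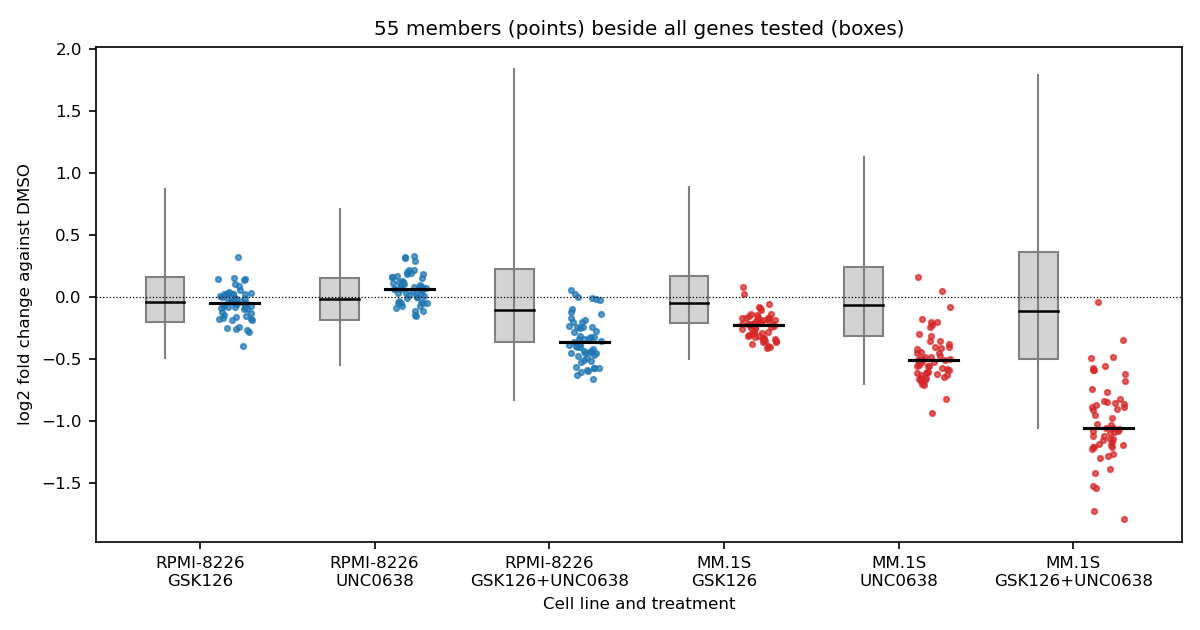
Log2 fold change against DMSO (vertical axis) for each treatment and cell line (horizontal axis). Grey boxes span the 25th to the 75th percentile of all genes tested, with whiskers from the 5th to the 95th percentile and a line at the median, and points are the 55 members with a line at their median. In MM.1S cells 33, 46 and 51 members lie below the lower edge of the box with GSK126, UNC0638 and both, and in RPMI-8226 cells 6, 0 and 27.

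The combination was next set against each inhibitor. In MM.1S cells 52 of 55 members were lower with both inhibitors than with GSK126 alone (22.3% of all genes, median of the members -0.79), all but NPM1, UBTF and UTP20. Against UNC0638 alone 44 were lower (7.67% of all genes, median -0.54), with the largest step for BOP1, -1.02 (SE 0.17, adjusted p = 0.0208). This count of 44 was 0 when only these 4 arrays were fitted (0.00% of all genes called lower), although all 55 values were below 0. Without single arrays both the count and the share of all genes called lower fell. In 51 of 55 members the combination was lowest, followed by UNC0638 and then GSK126. In RPMI-8226 cells no member was called against GSK126 (12 with an unadjusted p under 0.05, beside 9.27% of all genes, and 0.512% of genes called lower) or against UNC0638 (25 with an unadjusted p under 0.05, beside 9.95% of all genes, and 0.636% of genes called lower). The medians were -0.28 and -0.42, beside -0.06 and -0.08 over all genes. The combination had the lowest mean of the treatments for 51 members there.

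Whether both inhibitors together did more than the sum of their single effects was tested as an interaction on the log2 scale. No member departed from additivity by limma in either line, and 0.00% and 0.202% of all genes did in MM.1S and RPMI-8226 cells. The unadjusted p was under 0.05 with a departure below 0 for 19 members in MM.1S and 1 in RPMI-8226 cells, beside 5.88% and 1.34% of all genes. The median departure of the members was -0.25 in MM.1S cells, with 54 of 55 below 0, and -0.35 in RPMI-8226 cells, with 55 of 55 below 0. Over all genes the medians were -0.03 in both lines, with 54.2% and 54.6% below 0. All 3 treatments of a line share its DMSO arrays, so that an error of these arrays enters every member's departure.

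The RPMI-8226 values with both inhibitors differed between replicates. Set against the DMSO array of the same number, replicate 1 had a median of -0.64 with 55 of 55 members below 0, and replicate 2 a median of -0.12 with 39 of 55 below 0. Replicate 1 of the DMSO arrays was higher than replicate 2 for 49 members (median difference 0.21), and replicate 1 of the combination was lower than replicate 2 for 50 (median difference -0.26). In MM.1S cells the corresponding medians were -1.05 and -0.98, with 55 of 55 members below 0 in both. For 39 members both RPMI-8226 arrays given both inhibitors lay below both DMSO arrays, beside 38.1% of all genes. The count of 0 members called became 4 with the replicate number as a block, a smaller share than the 9.26% of all genes called lower in that fit. It was 22 in 1 fit over all 16 arrays (12.4% of all genes), 12 with an intensity trend (8.83%), 7 with normexp correction (6.90%) and 1 (NOLC1) without replicate 2 of the combination (2.28%).

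**Figure D4:**
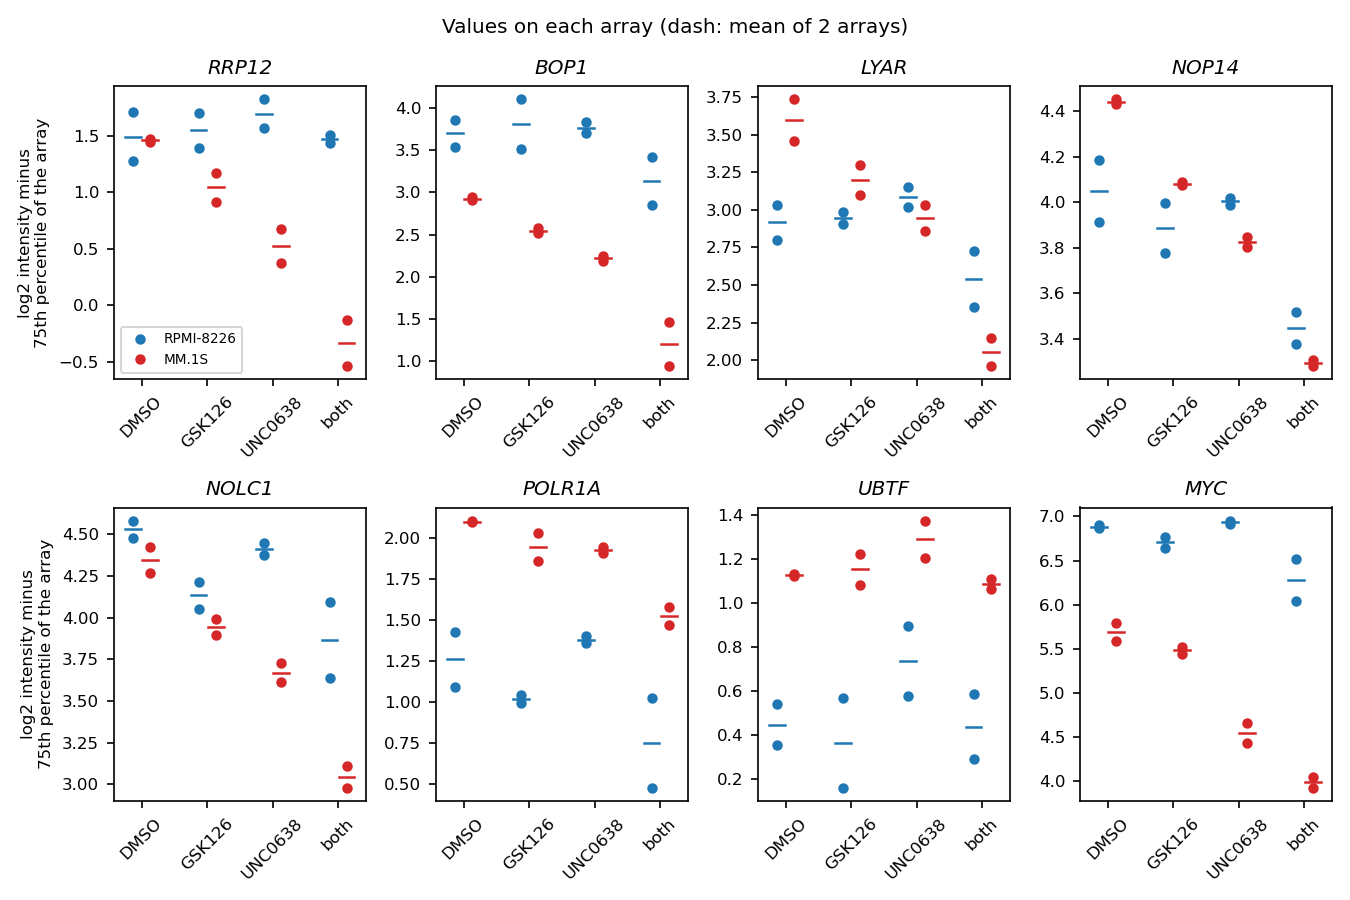
Values of 7 members and MYC on each array (vertical axis, log2 intensity minus the 75th percentile of the array, with its own scale for each gene) for DMSO, GSK126, UNC0638 and both inhibitors in RPMI-8226 (blue) and MM.1S cells (red). Points are arrays and dashes the means of 2. RRP12, BOP1, LYAR, NOP14, NOLC1 and MYC step down across the MM.1S groups, while UBTF stays between 1.06 and 1.37 there.

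The responses of the lines were compared in 1 fit over all 16 arrays, as the RPMI-8226 minus the MM.1S log2 fold change. With both inhibitors 25 of 55 members differed, all with the larger fall in MM.1S cells, beside 7.89% of all 19192 genes that differed in this direction, and the difference was above 0 for 55 of 55 (median 0.65). The largest difference was that of RRP12, 1.77 (SE 0.28, adjusted p = 0.00331), followed by MRTO4, 1.24 (SE 0.26, adjusted p = 0.0127), and BOP1, 1.16 (SE 0.34), which was not called (adjusted p = 0.0506). The smallest were those of UBTF, 0.03 (SE 0.24), POLR1A (its brighter probe), 0.07 (SE 0.24), and IMP3, 0.10 (SE 0.15), whose intervals reached from -0.50 to 0.56, from -0.47 to 0.60 and from -0.24 to 0.45. By role, 1 Pol I factor, 3 snoRNP, 5 SSU processome, 4 40S, 10 60S and 2 nucleolar members were among the 25. The count fell to 12 with no filter on dim probes, beside 2.71% of all genes in this direction. Without single arrays the count also moved, as did the share of all genes. With UNC0638 alone 1 member differed, PPAN, by 0.87 (SE 0.20, adjusted p = 0.0491, 1.23% of all genes), and 37 had an unadjusted p under 0.05, beside 10.6% of all genes in that direction. Without RPMI-8226 DMSO replicate 1 the count was 11 (2.71% of all genes), and with normexp 6 (1.85%). All 55 values were above 0 there (median 0.54), and 4 other members, RRP12, DDX10, NOP58 and EBNA1BP2, were called in its place with the replicate block (2.66% of all genes). With GSK126 alone none was called, 1 had an unadjusted p under 0.05 (5.42% of all genes, higher), and 48 of 55 values were above 0 (median 0.15, 0.432% of all genes called higher).

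In cells given DMSO the levels of the members differed between the lines. Of the 55, 28 members were higher in RPMI-8226 than in MM.1S cells and 6 lower, where 28.8% of all genes were called higher and 29.5% lower (median of the members 0.37). The highest differences were those of NOC2L, 1.43 (SE 0.17, adjusted p = 3.70e-05), WDR3, 1.38 (SE 0.12, adjusted p = 5.02e-06), and WDR12, 1.17 (SE 0.13, adjusted p = 2.38e-05), and their DMSO values, given above, did not overlap between the lines. POLR1A, -0.84 (SE 0.17, adjusted p = 0.00167), DDX56, -0.70 (SE 0.12, adjusted p = 4.47e-04), and UBTF, -0.68 (SE 0.17, adjusted p = 0.00553), were the lowest, and LYAR, NOC3L and NOP14 were the other 3 that were lower in RPMI-8226 cells. The total of 34 became 21 without MM.1S DMSO replicate 2. RRP12, the member whose response differed most, was not called between the lines with DMSO, with a difference of 0.03 (95% confidence interval from -0.41 to 0.47).

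Genes of the same pathway outside the 55 were read from a list of 109, of which 108 were tested. In MM.1S cells given both inhibitors 97 of 108 were lower and 1 higher (median -0.72), beside 32.0% of all genes called lower. The largest falls were those of MYBBP1A, which binds MYB and rests in the nucleolus (-1.77, SE 0.07), NLE1, a 60S factor (-1.71, SE 0.10), and EXOSC5, a subunit of the RNA exosome (-1.66, SE 0.15), and EFTUD1, a GTPase of late 60S maturation, was the 1 higher gene (0.44, SE 0.08). In RPMI-8226 cells 8 of 108 were lower and none higher (median -0.32), beside 4.77% of all genes called lower. The 8 were led by WBSCR22, a methyltransferase of 18S rRNA (-0.92, adjusted p = 0.00737), and the exosome subunits EXOSC1 (-0.90, adjusted p = 0.00965) and EXOSC2 (-0.84, adjusted p = 0.0191), and the count was 19 with the replicate block, beside 9.26% of all genes. Leaving out single arrays gave 0 (without replicate 1 of the combination) to 6 genes, with 2 and 4 without DMSO replicate 1 and 2 and 4 without either UNC0638 array. Of 78 cytosolic ribosomal proteins, 76 were lower in MM.1S cells (median -0.58) and 1, RPS14, in RPMI-8226 cells (median -0.29, and 4 with the block). Of 75 mitochondrial ribosomal proteins 71 were lower in MM.1S cells (median -0.68), and 3 were lower (MRPL10, MRPL13 and MRPS5) and 1 higher (MRPS6) in RPMI-8226 cells (median -0.25, and 5 lower with the block). The RPMI-8226 calls of both lists depended on single arrays. Under quantile normalization 30 of 78 cytosolic ribosomal proteins were lower in MM.1S cells, beside 28.0% of all genes. The medians of the members, -1.06 and -0.36, lay below those of all 3 lists in both lines, a difference that was not tested.

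MYC, which is no member, gave 5.80 and 5.59 with DMSO, 5.52 and 5.44 with GSK126, 4.66 and 4.43 with UNC0638 and 4.05 and 3.92 with both in MM.1S cells and 6.90 and 6.87 with DMSO, 6.64 and 6.77 with GSK126, 6.91 and 6.95 with UNC0638 and 6.05 and 6.52 with both in RPMI-8226 cells. It fell by 1.15 with UNC0638 (adjusted p = 0.00287) and by 1.71 with both inhibitors in MM.1S cells (SE 0.12, adjusted p = 2.81e-04), and changed by -0.60 with both in RPMI-8226 cells (SE 0.18, adjusted p = 0.0799). Of the 11 genes of the MYC and MAX network, 5 were lower (MYC, MLX, MNT, MGA and MXD3) and 2 higher with both inhibitors in MM.1S cells, the latter MXD4, a repressor that competes with MYC for MAX (1.48, SE 0.12), and MYCN (0.88, SE 0.23). Of all 17920 genes tested in MM.1S cells given both inhibitors, 5732 (32.0%) were called lower and 4099 higher. None of the 11 was called in RPMI-8226 cells, beside 4.77% of all genes called lower. The members with CACGTG in the promoter had a median of -1.15 in MM.1S cells given both inhibitors and those without it -0.98, and in RPMI-8226 cells -0.33 and -0.40. For CACGCG or CGCGTG the medians with and without the motif were -0.94 and -1.07 in MM.1S cells and -0.34 and -0.37 in RPMI-8226 cells. Over all genes with a promoter in the table, CACGTG was found for 13.2% of those called lower in MM.1S cells, 12.7% of those called higher and 11.7% of those not called, and in RPMI-8226 cells for 9.11%, 9.16% and 12.9%.

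Most members rested on 1 probe (42 of 55). The 13 others had further probes, of which 17 passed the filter in MM.1S cells, all 17 with a value below 0 with both inhibitors and 14 called lower (median -0.97, from -2.07 for POLR1A to -0.13 for POLR1C). In RPMI-8226 cells all 16 further probes kept were below 0 and none was called (median -0.49).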

How the data were processed

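Total RNA was labelled with Cy3 and hybridised to Agilent SurePrint G3 Human GE v2 1-colour arrays. The deposited intensity values came from Agilent Feature Extraction 10.7.3.1 per the file headers, which subtracted a background by spatial detrending on each array, with no scaling between arrays. The deposited flags (other) say whether a spot was well above background. The array designs place probes on GRCh37. Of 62976 spots, 4259 were controls and were left out, and spots of the 50599 probes were averaged. Here the processed intensity was put on a log2 scale, the 75th percentile of each array was subtracted, and the result was fitted with limma 3.58.1 in R 4.3.3, over the 8 arrays of a line for treatments and over all 16 for comparisons of lines. A probe was kept if some group had it well above background on its 2 arrays (23199 in RPMI-8226, 25102 in MM.1S and 26931 in both). P-values are two-sided. Each gene was read from the probe with the highest mean over 16 arrays. Outlier spots were left out. The number of arrays limits the precision.

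The members and lists were chosen with earlier results of these data known. Values on every array were given, for each role, for the 2 members with the largest and the 1 with the smallest change in MM.1S and the 1 with the largest in RPMI-8226 given both inhibitors, for the 3 largest and 3 smallest differences between the responses and for the 3 largest differences in DMSO levels in each direction. Replicate numbers were tested as pairs by the correlation of deviations from group means across probes. It was 0.25 to 0.42 in all 6 pairs of RPMI-8226 groups and 0.08 to 0.22 in MM.1S groups, where 1 of 6 was under 0.1. The main fits had no replicate block in either line, and the block was run as an alternative. Replicate number and slide row were the same split, so that this correlation cannot tell them apart. Arrays of a group correlated at 0.986 to 0.995. Alternatives were quantile normalization, a percentile over probes well above background on all 16 arrays, normexp correction (offset 50), no or a stricter filter, the series value table, probes averaged per gene, an intensity trend, the replicate number as a block, other sets of arrays in the fit and leaving out each array. The series table held the same values as the scanner files for 99.9958% of entries at 3 digits. Scripts were tested on simulated data. No comparison computed by the authors was used.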

Additional observations from a re-analysis of the deposited data

Results flagged for a closer look

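By the interaction test in limma, the UNC0638 response differed between RPMI-8226 and MM.1S cells for 1 of 55 members, PPAN. In that direction 1.23% of all genes were called. The PPAN call was lost under quantile normalization, the detected-probe percentile and no filter. With both inhibitors the response differed for 25 of 55 members, beside 7.89% of all genes in that direction. Among the members given on every array, the difference with both inhibitors (RPMI-8226 minus MM.1S, log2, adjusted p under 0.05) was 1.77 for RRP12, 1.24 for MRTO4, 1.16 for LYAR, 1.09 for DDX21, 0.90 for WDR43 and 0.81 for BYSL. It was 0.77 for NOP2, 0.75 for POLR1E, 0.71 for WDR3, 0.70 for PNO1, 0.67 for WDR12 and 0.60 for DDX56.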

How the results depend on the processing

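The fall of the members with both inhibitors in MM.1S cells kept its call for 51 to 54 members in every alternative and for 52 to 54 without single arrays. It numbered 51 under quantile normalization, where IMP3, NPM1 and UTP20 lost the call, and 51 with the percentile over detected probes, where IMP3, UTP20 and WDR36 did. Its median of -1.06 was -0.79 under quantile normalization, -0.87 with that percentile, -1.01 with normexp and -1.12 to -1.0 without single arrays. The detected-probe percentile moved the log2 fold changes of all probes by 0.19 in MM.1S and 0.13 in RPMI-8226 cells. Against GSK126 alone, 45 to 50 members were lower in MM.1S cells without single arrays. No named member changed direction with a call. In MM.1S cells 4 values of named members under an alternative lost the call (IMP3 3 times, NPM1 once) against 509 that kept their side of the threshold, and in RPMI-8226 cells 30 gained one against 483. The causes of these changes were not tested.

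Other counts moved more, as did the shares of all genes called lower in the same fits. With GSK126 in MM.1S cells 2.39% of all genes became 0.125% with no filter and 3.48% with the replicate block. It was 4.24% with the stricter filter, 5.02% with normexp and 8.11% with the trend. With UNC0638 there 16.4% became 3.56% with no filter and 8.69% with 16 arrays. For the combination against UNC0638 there 7.67% became 0.279% with no filter, 2.25% with 16 arrays and 0.00% with the 2 groups alone. For MM.1S cells given GSK126, 1 member became 0 under quantile normalization, the detected-probe percentile, no filter, 1 fit over 16 arrays or the 2 groups alone, 2 with the mean of probes, 3 with the replicate block, 4 with the stricter filter, 7 with normexp and 18 with an intensity trend, and 0 without any single array. The median of -0.22 was -0.16 (quantile), -0.15 (detected probes) and -0.28 to -0.19 without single arrays. For UNC0638 in MM.1S cells 43 became 25 with no filter, 28 with 16 arrays and 16 to 45 without single arrays, and the median of -0.51 was -0.40 (quantile), -0.42 (detected probes), -0.56 (mean of probes) and -0.56 to -0.47 without single arrays. For the combination against UNC0638 in MM.1S cells 44 became 4 with no filter, 20 with 16 arrays, 0 with the 2 groups alone and 0 to 30 without single arrays. For the combination in RPMI-8226 cells 0 became 4 with the replicate block, 7 with normexp, 12 with the trend, 22 with 16 arrays and 0 to 1 without single arrays. Against GSK126 it became 1 with 16 arrays, beside 2.92% of all genes called lower. Against UNC0638 it became 3 with normexp (1.25% of all genes), 1 with the trend (1.58%) and 14 with 16 arrays (3.75%). The medians in RPMI-8226 cells without single arrays ran from -0.12 to 0.07 (GSK126), from -0.05 to 0.18 (UNC0638) and from -0.50 to -0.23 (both).

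The difference between lines with UNC0638 (1 member) became 0 under quantile (1.23% of all genes called higher), detected-probe (0.912%) or unfiltered values (0.267%). It was 2 with the mean of probes (1.32%), 4 with the replicate block (2.66%) and 6 with normexp (1.85%). It was 6 with the stricter filter (1.63%) and 14 with the trend (2.62%). Without single arrays the count also moved. With both inhibitors 25 became 12 with no filter and 6 to 34 without single arrays, and for DMSO levels 34 became 21 to 35 without single arrays.

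Among other pathway genes given both inhibitors in RPMI-8226 cells, the 8 ribosome biogenesis genes became 5 (quantile), 5 (detected probes), 17 (normexp), 3 (no filter), 19 (replicate block), 23 (trend), 33 (16 arrays), 2 (2 groups) and 0 to 6 without single arrays. The 1 cytosolic ribosomal protein became 0 (quantile, detected probes, no filter or 2 groups), 11 (normexp), 4 (replicate block), 17 (trend), 26 (16 arrays) and 0 to 1 without single arrays. The 3 mitochondrial ones became 0 (quantile, no filter or 2 groups), 1 (detected probes), 7 (normexp), 5 (replicate block or mean of probes), 11 (trend), 19 (16 arrays) and 0 to 2 without single arrays. In MM.1S cells 76 cytosolic ribosomal proteins became 30 under quantile normalization and 66 to 77 without single arrays, while 97 ribosome biogenesis genes ran from 85 to 97 and 71 mitochondrial ones from 58 to 71. Under quantile normalization 28.0% of all genes were called lower in MM.1S cells given both inhibitors. In RPMI-8226 cells given both, the share was 5.62% (quantile), 2.56% (detected probes), 6.90% (normexp) and 0.718% (no filter). It was 9.26% (replicate block), 5.40% (mean of probes), 8.83% (trend), 12.4% (16 arrays) and 1.42% (2 groups). Replicate numbers entered the main fits of neither line, and apart from the counts given the block moved no count of calls by more than 1.5 times. Dropping 1 array leaves a lone array in its group, which is assumed to vary like the others.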
